A study of Mus musculus with 14 samples.

Results

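The nucleolar ribosome assembly factors described here are 65 of the 22155 genes in the count table. They were chosen by symbol, from a rule written with earlier results of these data known: all genes of the Utp, Nop, Rrp and Exosc series, Noc2l, Noc3l and Noc4l, and a list of further named factors that act on ribosomal RNA precursors or organise the nucleolus. Each was placed in 1 of 8 stages of the assembly pathway. The series holds 14 samples, of which 6 are mRNA sequencing libraries and 8 are chromatin samples that were not analysed here. The 6 libraries came from Cas9-expressing mouse MLL-AF9 leukemia cells. Per the study's methods, lineage-negative bone marrow cells received a retroviral MLL-AF9 fusion gene and were transplanted into sublethally irradiated mice. Leukemic blasts from the diseased mice were then grown in culture with cytokines. The sgSgf29 cells (3 libraries) carried a lentiviral ipUSEPR vector with a guide RNA against Sgf29, and the sgCtrl cells (3 libraries) the same vector with a guide to a sequence the cells do not need. Both groups also carried Cas9 from a lentivirus and were selected in puromycin at 2 μg/ml for 3 days. The labels do not say whether libraries 1 to 3 of a group came from separate cultures or different guides, so the p-values measure only the spread between these libraries, which may be technical.

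Ribosomes are built in the nucleolus, where RNA polymerase I transcribes a long precursor RNA. Small nucleolar ribonucleoproteins (snoRNPs) modify it, the small-subunit processome folds and cleaves it into the precursor of the small subunit, and a separate set of factors builds the large subunit. The RNA exosome trims and degrades the spacer fragments. Genes of this pathway are highly expressed in growing cells, and many are known targets of the transcription factor MYC. SGF29 is a Tudor-domain protein that reads methylated histone H3 and belongs to the SAGA and ATAC acetyltransferase complexes.

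The promoters of 5 members are shown side by side. Nop56 had the most negative log2 fold change, and Dkc1 was the 1 tested member that did not pass the test. Nop2, Pes1 and Wdr43 are among the 12 tested members with an E-box and changed by -1.01, -0.77 and -1.15 on the log2 scale. Over all 12, the log2 fold changes ran from -1.15 to -0.19. The sequences are from RefSeq (build GRCm38.p6) and run from 250 bases before to 50 bases after the annotated start. They lie at chr2:130274162-130274461, strand + (Nop56), chrX:75095604-75095903, strand + (Dkc1), chr6:125131633-125131932, strand + (Nop2), chr11:3963725-3964024, strand + (Pes1) and chr17:71615965-71616264, strand + (Wdr43). Capitals mark the E-box CACGTG, the element that MYC and related proteins bind, and the ETS-type motif CCGGAAG, each searched on both strands.
Nop56: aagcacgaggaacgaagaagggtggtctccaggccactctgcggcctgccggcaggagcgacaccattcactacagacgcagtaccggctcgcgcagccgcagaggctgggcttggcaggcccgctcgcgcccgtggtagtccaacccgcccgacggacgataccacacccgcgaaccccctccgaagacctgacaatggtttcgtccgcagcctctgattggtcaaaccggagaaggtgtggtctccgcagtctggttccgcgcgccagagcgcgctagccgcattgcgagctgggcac
Dkc1: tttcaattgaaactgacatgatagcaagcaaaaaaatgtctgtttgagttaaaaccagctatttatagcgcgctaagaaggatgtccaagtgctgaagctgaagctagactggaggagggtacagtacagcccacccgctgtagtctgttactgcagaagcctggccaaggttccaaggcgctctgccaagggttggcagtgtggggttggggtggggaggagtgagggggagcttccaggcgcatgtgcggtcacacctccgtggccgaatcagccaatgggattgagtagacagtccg
Nop2: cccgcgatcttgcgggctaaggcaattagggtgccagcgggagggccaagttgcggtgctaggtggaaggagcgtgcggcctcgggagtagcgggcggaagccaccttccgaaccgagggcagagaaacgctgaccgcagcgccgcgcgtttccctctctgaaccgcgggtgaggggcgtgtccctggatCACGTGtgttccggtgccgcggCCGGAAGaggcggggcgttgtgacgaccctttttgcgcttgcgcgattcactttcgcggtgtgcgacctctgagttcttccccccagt
Pes1: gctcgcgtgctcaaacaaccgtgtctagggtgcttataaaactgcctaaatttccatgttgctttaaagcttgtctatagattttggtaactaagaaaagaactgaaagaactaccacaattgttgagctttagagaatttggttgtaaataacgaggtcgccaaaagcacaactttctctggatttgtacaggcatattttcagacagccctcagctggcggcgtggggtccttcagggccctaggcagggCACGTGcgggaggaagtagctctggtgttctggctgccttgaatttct
Wdr43: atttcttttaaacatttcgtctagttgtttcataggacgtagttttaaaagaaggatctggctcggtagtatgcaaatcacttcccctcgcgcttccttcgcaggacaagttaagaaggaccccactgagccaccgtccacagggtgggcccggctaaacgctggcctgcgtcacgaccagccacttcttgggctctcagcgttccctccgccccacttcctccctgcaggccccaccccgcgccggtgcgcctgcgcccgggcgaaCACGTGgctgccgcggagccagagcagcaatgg
The first base of the E-box lay 60 bases before the start of Nop2, where the ETS-type motif began 38 bases before it. It lay 2 bases after the start of Pes1 and 17 bases after that of Wdr43. The windows of Nop56 and Dkc1 held neither motif.

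Of the 65 members, 63 passed the filter on low counts. All of these but Dkc1 were lower in sgSgf29 cells: 62 of 63 were called lower at an adjusted p under 0.05 (edgeR quasi-likelihood test, Benjamini-Hochberg over 11169 genes), where 34.4% of all genes tested were called lower. No member was called higher, where 35.4% of all genes were. At an unadjusted p under 0.05 the count of higher members was also 0 with edgeR, with DESeq2 and with limma-voom, and each tool called 62 lower. The log2 fold changes of the members ran from -1.61 to 0.14 with a median of -0.74, beside a median of 0.01 over all genes tested. A log2 fold change of -1 or less was found with a pass in 16 members, beside 4.67% of all genes. In 61 members each sgSgf29 library lay below each sgCtrl library, a separation seen in 35.1% of all genes, and the values overlapped only in Dkc1 and Exosc9. Among all genes tested, 17 members fell in the lowest 5% of log2 fold changes, 31 in the lowest 10% and 52 in the lowest 25%. Genes with a higher level in sgCtrl cells tended to have more negative log2 fold changes. The Spearman rank correlation was -0.33 over all genes tested and -0.50 over the members. The same sgCtrl values enter both the level and the fold change, which by itself can give a negative correlation. How much of these correlations comes from that was not tested. The shares over all genes given here were not matched for level.

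The size of the shift depended on how the libraries were scaled. Levels are given in CPM, read counts relative to the size of the library, with TMM scaling, a trimmed mean of ratios that takes most genes as unchanged. When the total count alone set the scale, the median over all genes moved to 0.24 and that of the members to -0.51. The distance between the medians stayed at -0.75, which is no separate result, as a change of scale moves all genes nearly alike. The calls over all genes were then 2385 lower and 5575 higher, beside 3842 lower and 3957 higher with TMM scaling. Under that scaling 51 members were called lower, Dkc1 was called higher, and Utp3, Exosc9, Bysl and Ltv1 had values just above 0 without passing. Rrp8, Utp18, Rrp36, Bms1, Imp4, Utp23 and Exosc10 kept a negative value but did not pass. As a plain share, the members took 0.705%, 0.702% and 0.738% of all gene counts in the sgSgf29 libraries, against 1.08%, 1.08% and 1.13% in the sgCtrl libraries. The 2 groups did not overlap in this share.

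**Figure D1:**
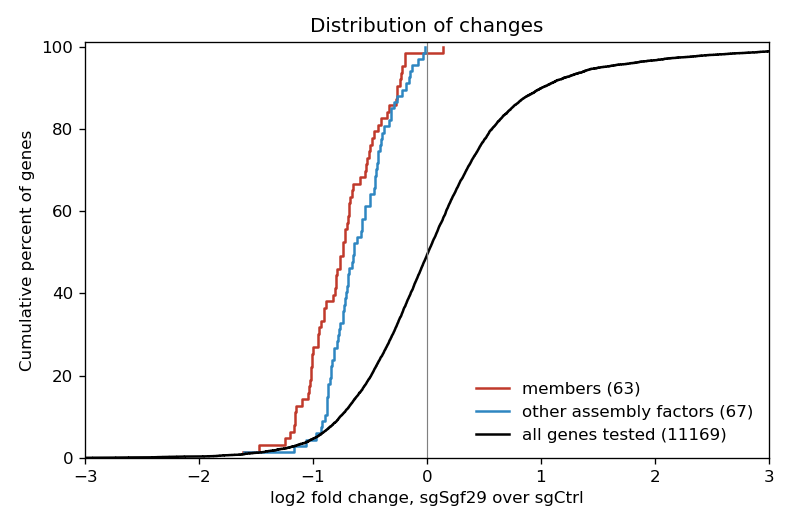
Cumulative percent of genes (vertical axis) at or below each log2 fold change of sgSgf29 over sgCtrl (horizontal axis) for the 63 tested members, 67 other assembly factors and all 11169 genes tested. The medians are -0.74, -0.64 and 0.01, and 1 member, Dkc1, lies to the right of 0; with scaling by total count Utp3, Exosc9, Bysl and Ltv1 also lie there.

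Sgf29, the targeted gene (chr7:126649309-126672925, GRCm38), had 12.6, 13.4 and 17.4 CPM in the sgSgf29 libraries, against 36.2, 40.4 and 40.4 CPM in the sgCtrl libraries. It was lower in every sgSgf29 library (log2 fold change -1.43, SE 0.107, adjusted p = 2.9e-10). Total gene counts were 16085601 to 20185751 in sgSgf29 libraries and 16003990 to 21786618 in sgCtrl libraries. All 7 markers of myeloid leukemia cells were detected. Of these, 5 were higher in sgSgf29 cells, and Mpo (log2 fold change -1.83) and Hoxa9 (-1.37) were lower. Itgam, among the higher ones, is also in the mature myeloid list below. For the counts of called markers here, the shares over all genes tested were 35.4% higher and 34.4% lower. Markers of erythroid, B, T and fibroblast cells stayed at or below 0.445 CPM, and those of megakaryocytes and mast cells at or below 9.99 CPM. In these lists 3 of 4 erythroid, 1 of 3 B cell, 2 of 3 T cell, 1 of 3 fibroblast, 1 of 4 megakaryocyte and 2 of 3 mast cell markers had no count in any library. Of 20 mature myeloid markers 16 were higher and 3 lower, with a summed level of 27476 to 28994 CPM in sgSgf29 cells and 9346 to 10111 CPM in sgCtrl cells. Of 15 genes of dividing cells 12 were lower and none higher, with a median log2 fold change of -0.30 and a summed level of 2096 to 2485 CPM in sgSgf29 cells and 2742 to 2913 CPM in sgCtrl cells. With total-count scaling 5 of these 15 were lower and 1 higher, at a median of -0.07. Of all 11169 genes tested, 2385 were lower and 5575 higher under that scaling. The part of these lists in the difference of the assembly factors was not tested. In bulk RNA, fewer cells of a type and less RNA per cell cannot be told apart.

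**Figure D2:**
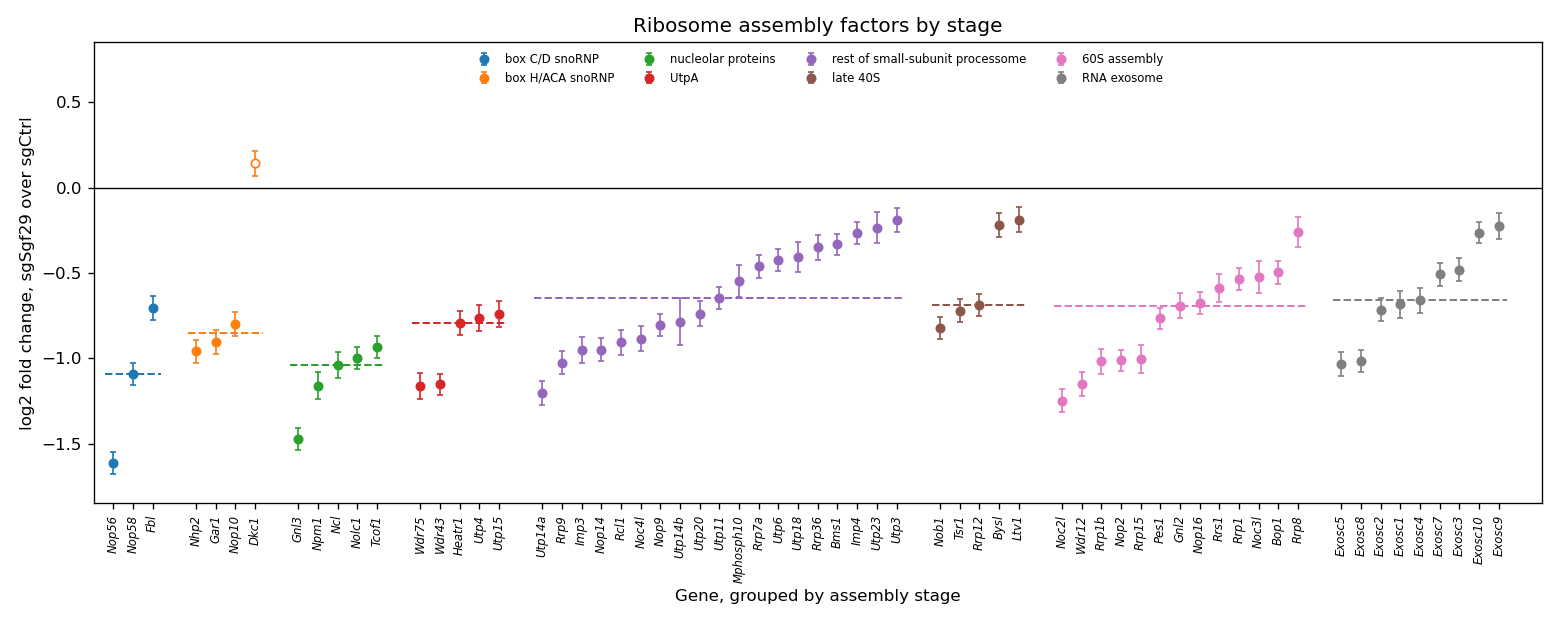
Log2 fold change of sgSgf29 over sgCtrl (vertical axis, points with standard error) for the 63 tested members, grouped by stage along the horizontal axis, with the median of each stage as a dashed line. Filled points passed the test and the open point, Dkc1, did not. With scaling by total count Utp3, Exosc9, Bysl and Ltv1 move to just above 0.

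The box C/D snoRNP proteins form part of the particles that carry out 2′-O-methylation of ribosomal RNA. All 3 were lower in sgSgf29 cells, with a summed level of 629 ± 21.8 CPM in sgSgf29 cells and 1493 ± 19.0 CPM in sgCtrl cells (SD, n = 3 each). Nop56, a core scaffold protein of the particle (chr2:130274430-130279313), had 274, 267 and 280.4 CPM in the sgSgf29 libraries, against 858, 843 and 811 CPM in the sgCtrl libraries. The sgSgf29 libraries lay far under the sgCtrl libraries and close to each other, at 32.7% of the control level (log2 fold change -1.61, SE 0.065, adjusted p = 2.2e-14). Nop58, its paralogous partner on the same particle (chr1:59684971-59719044), had 145, 151 and 161 CPM in the sgSgf29 libraries, against 314, 326 and 337 CPM in the sgCtrl libraries. The groups were again apart (log2 fold change -1.09, SE 0.065, adjusted p = 7.1e-12). Fbl, the methyltransferase fibrillarin, had 199, 196 and 213 CPM in the sgSgf29 libraries, against 329, 303 and 358 CPM in the sgCtrl libraries. Its groups did not overlap either (log2 fold change -0.70, SE 0.069, adjusted p = 1.6e-08). The ratio of Nop56 to Nop58 counts within a library was 1.89, 1.76 and 1.74 in the sgSgf29 libraries, against 2.73, 2.59 and 2.41 in the sgCtrl libraries. The ratio of Nop56 to Fbl was 1.38, 1.36 and 1.32 in the sgSgf29 libraries, against 2.605, 2.79 and 2.27 in the sgCtrl libraries. Both ratios were lower in each sgSgf29 library than in each sgCtrl library, and neither depends on scaling. These pairs, like all ratios given here, were picked with the values in view and are a description. The annotation holds pseudogenes of at least 90% identity for 14 members, among them 6 for Nop56 and 2 for Fbl. Reads without a unique alignment were set apart and not counted to a gene. They made up 5.41% to 6.23% of the column total in sgSgf29 libraries and 6.42% to 7.57% in sgCtrl libraries. How many of these reads came from members was not tested.

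The box H/ACA snoRNP proteins form part of the particles that change uridine to pseudouridine, and the same proteins hold telomerase RNA. Of these 4 members 3 were lower in sgSgf29 cells. Nhp2, an RNA-binding core protein (chr11:51619735-51623714), had 233.7, 212 and 223 CPM in the sgSgf29 libraries, against 457, 409 and 435 CPM in the sgCtrl libraries. The groups did not overlap (log2 fold change -0.96, SE 0.067, adjusted p = 8.9e-11). Gar1, which aids release of the modified RNA (chr3:129824912-129831396), had 90.9, 85.9 and 99.97 CPM in the sgSgf29 libraries, against 173, 165 and 181 CPM in the sgCtrl libraries. It too was separated (log2 fold change -0.91, SE 0.069, adjusted p = 3.4e-10). Nop10, a small protein that bridges the others, had a log2 fold change of -0.80. Dkc1, the pseudouridine synthase dyskerin (chrX:75095854-75109777), had 621, 538 and 575 CPM in the sgSgf29 libraries, against 536, 546 and 490.2 CPM in the sgCtrl libraries. The libraries of the 2 groups overlapped, and the difference did not pass the test (log2 fold change 0.14, SE 0.071, adjusted p = 0.083). Dkc1 was called higher under 3 other settings, by upper-quartile scaling (adjusted p = 0.043), by total-count scaling (log2 fold change 0.37, adjusted p = 5.0e-05) and with the replicate number as a block (adjusted p = 0.030). It was also called higher without sgSgf29 library 2 (log2 fold change 0.20, adjusted p = 0.037).

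The balance within the H/ACA group can be read as ratios of counts within a library, which need no scaling factor. The ratio of Dkc1 to Gar1 was 6.84, 6.27 and 5.76 in the sgSgf29 libraries, against 3.10, 3.32 and 2.71 in the sgCtrl libraries. The ratio of Dkc1 to Nhp2 was 2.66, 2.54 and 2.58 in the sgSgf29 libraries, against 1.17, 1.34 and 1.13 in the sgCtrl libraries. Both were higher in each sgSgf29 library than in each sgCtrl library. By contrast, the ratio of Gar1 to Nhp2 was 0.389, 0.405 and 0.448 in the sgSgf29 libraries, against 0.379, 0.403 and 0.415 in the sgCtrl libraries, and these values overlapped. In the annotation 2 pseudogenes resemble Dkc1 and 1 each resembles Gar1 and Nhp2.

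**Figure D3:**
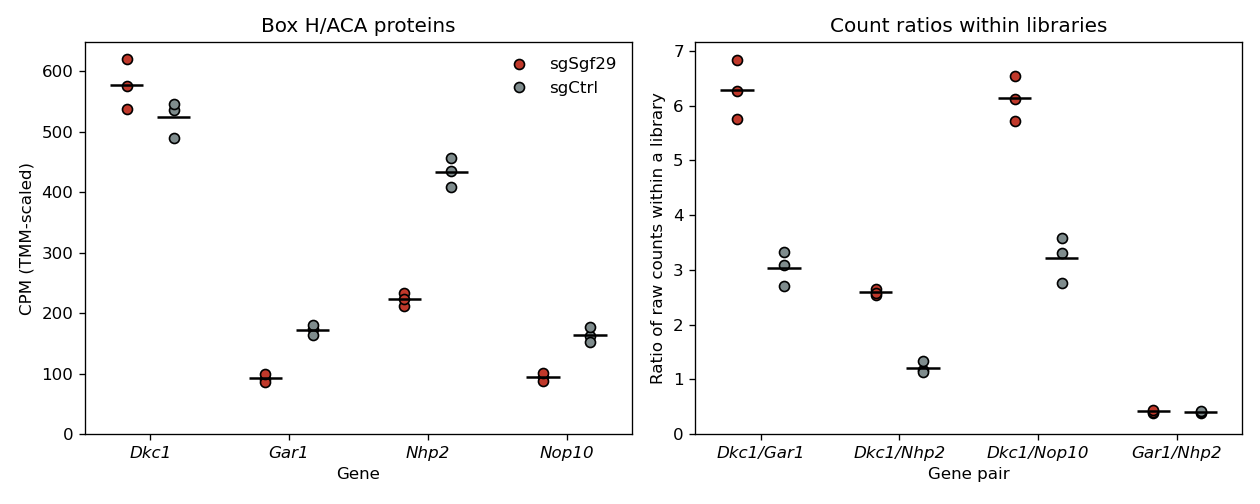
Left, TMM-scaled CPM (vertical axis) of the 4 box H/ACA genes in each library, with bars at the group means of 3 libraries. Right, ratio of raw counts of gene pairs within each library. The sgSgf29 points lie above the sgCtrl points for the 3 pairs with Dkc1 and overlap them for Gar1/Nhp2.

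Proteins that organise the nucleolus were lower in all 5 cases, with a median log2 fold change of -1.04. Gnl3, the GTPase nucleostemin (chr14:31012433-31019152), had 75.1, 77.9 and 80.6 CPM in the sgSgf29 libraries, against 210.2, 226 and 211 CPM in the sgCtrl libraries. Among members only Nop56 had a more negative log2 fold change (log2 fold change -1.47, SE 0.064, adjusted p = 7.0e-14). Npm1, the chaperone nucleophosmin (chr11:33152287-33163206), had 657, 623 and 699 CPM in the sgSgf29 libraries, against 1411, 1367 and 1642 CPM in the sgCtrl libraries. The sgCtrl libraries varied more than the sgSgf29 libraries, yet the groups were apart (log2 fold change -1.16, SE 0.080, adjusted p = 7.6e-11). Ncl, the RNA-binding protein nucleolin (chr1:86344719-86359400), had 828, 799 and 857 CPM in the sgSgf29 libraries, against 1637, 1612 and 1860.0 CPM in the sgCtrl libraries. All 3 sgSgf29 libraries were lower (log2 fold change -1.04, SE 0.076, adjusted p = 1.7e-10). Nolc1, a chaperone of snoRNPs, changed by -0.999 and Tcof1, the treacle protein that recruits RNA polymerase I factors, by -0.93 on the log2 scale, and both passed. Per kilobase of exon, Npm1 had the highest level of the members, 247 in sgSgf29 cells and 553 in sgCtrl cells, in CPM per kb. Its 10 annotated pseudogenes of at least 90% identity make its share of reads less certain than that of single-copy members.

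The UtpA complex binds the precursor RNA first and seeds the small-subunit processome. All 5 of its subunits among the members were lower, with log2 fold changes from -1.16 to -0.74. Wdr75 (chr1:45795166-45823619), a WD-repeat subunit, had 34.3, 31.9 and 37.5 CPM in the sgSgf29 libraries, against 74.1, 81.2 and 76.8 CPM in the sgCtrl libraries. Its groups were well apart (log2 fold change -1.16, SE 0.074, adjusted p = 2.4e-11). Wdr43 (chr17:71615895-71659031), also a WD-repeat subunit, had 85.1, 82.3 and 86.8 CPM in the sgSgf29 libraries, against 193, 189 and 183 CPM in the sgCtrl libraries. The values within each group lay close together (log2 fold change -1.15, SE 0.062, adjusted p = 1.7e-12). Heatr1 (chr13:12395027-12440289), the largest subunit, had 58.0, 60.2 and 68.6 CPM in the sgSgf29 libraries, against 114, 104 and 106 CPM in the sgCtrl libraries. It also passed (log2 fold change -0.79, SE 0.072, adjusted p = 4.7e-09). Utp4 and Utp15, also subunits, changed by -0.77 and -0.74 on the log2 scale. Nol11, a UtpA subunit outside the chosen set that was named after its value was seen, changed by -0.58 on the log2 scale and passed the test.

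The rest of the small-subunit processome held 19 members, all lower, with a median log2 fold change of -0.65. Utp14a (chrX:48256862-48282453), a factor that activates a helicase of the processome, had 38.4, 43.1 and 44.7 CPM in the sgSgf29 libraries, against 98.6, 100.2 and 92.9 CPM in the sgCtrl libraries. The groups did not overlap (log2 fold change -1.21, SE 0.071, adjusted p = 6.9e-12). Rrp9 (chr9:106475963-106485424), a protein specific to the U3 snoRNP, had 48.7, 49.8 and 52.5 CPM in the sgSgf29 libraries, against 103, 98.0 and 106 CPM in the sgCtrl libraries. It passed as well (log2 fold change -1.02, SE 0.066, adjusted p = 2.5e-11). Imp3 (chr9:56937475-56938398), which pairs U3 RNA with the precursor RNA, had 56.8, 49.5 and 47.8 CPM in the sgSgf29 libraries, against 95.6, 96.7 and 105 CPM in the sgCtrl libraries. The groups did not overlap (log2 fold change -0.95, SE 0.073, adjusted p = 4.2e-10). Imp4, a partner of Imp3 in the same complex, changed by -0.27, and Mphosph10, the remaining partner, by -0.55. The ratio of Imp3 to Imp4 counts was 0.866, 0.727 and 0.734 in the sgSgf29 libraries, against 1.16, 1.27 and 1.30 in the sgCtrl libraries. This ratio too was lower in each sgSgf29 library.

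Nop14 (-0.95) and Noc4l (-0.89), which act as partners, were among the larger changes of the processome, as were the cyclase-like factor Rcl1 (-0.91) and the RNA-binding factor Nop9 (-0.80), whose exonic bases overlap Cideb on the other strand over 29.9%. Cideb itself had a log2 fold change of 1.87, at no more than 7.92 CPM. Utp14b, a retrogene copy of Utp14a that shares 3.18% of its exonic bases with Acsl3 on the same strand, was low in all libraries at 5.52 to 6.85 CPM in sgSgf29 cells and 10.7 to 11.1 CPM in sgCtrl cells (-0.79). The large scaffold Utp20 changed by -0.74 and Utp11 by -0.65. Smaller changes were found in Rrp7a (-0.46), in the UtpB subunits Utp6 (-0.43) and Utp18 (-0.41), in Rrp36 (-0.35) and in the GTPase Bms1 (-0.33), all log2 values. The smallest were Utp23 (-0.23, adjusted p = 0.030) and Utp3 (-0.19, adjusted p = 0.023). The call of Utp23 was lost without any 1 of the 3 sgSgf29 libraries (adjusted p = 0.12, 0.057 and 0.056) or without sgCtrl library 1 (0.11). That of Utp3 was lost without sgSgf29 library 2 (0.11) or 3 (0.080) or sgCtrl library 3 (0.10), and its sign turned with total-count scaling.

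Late 40S factors act on the small subunit after it leaves the processome. All 5 were lower. Nob1 (chr8:107412486-107425051), the nuclease that makes the mature end of 18S ribosomal RNA, had 63.9, 64.8 and 65.7 CPM in the sgSgf29 libraries, against 110.3, 116 and 118 CPM in the sgCtrl libraries. The libraries of each group were tightly grouped (log2 fold change -0.82, SE 0.063, adjusted p = 3.6e-10). Tsr1 (chr11:74898071-74909342), a GTPase-like factor, had 46.6, 51.9 and 49.4 CPM in the sgSgf29 libraries, against 83.5, 79.6 and 81.1 CPM in the sgCtrl libraries. It passed (log2 fold change -0.72, SE 0.067, adjusted p = 6.7e-09), although 32.3% of its exonic bases overlap Srr on the other strand and the strand setting of the counting is not given in the sources used here. Rrp12 (chr19:41862851-41896173), an export factor, had 43.1, 43.0 and 43.4 CPM in the sgSgf29 libraries, against 70.2, 70.4 and 67.9 CPM in the sgCtrl libraries. The sgSgf29 values were nearly equal (log2 fold change -0.69, SE 0.065, adjusted p = 9.6e-09). Bysl (-0.22, adjusted p = 0.0076) and Ltv1 (-0.19, adjusted p = 0.025), which bind late precursors of the small subunit, changed least, and both turned sign with total-count scaling. Bysl lost its call without sgSgf29 library 2 (adjusted p = 0.081), and Ltv1 without sgSgf29 library 1 (0.12) or 3 (0.065) or sgCtrl library 2 (0.091).

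**Figure D4:**
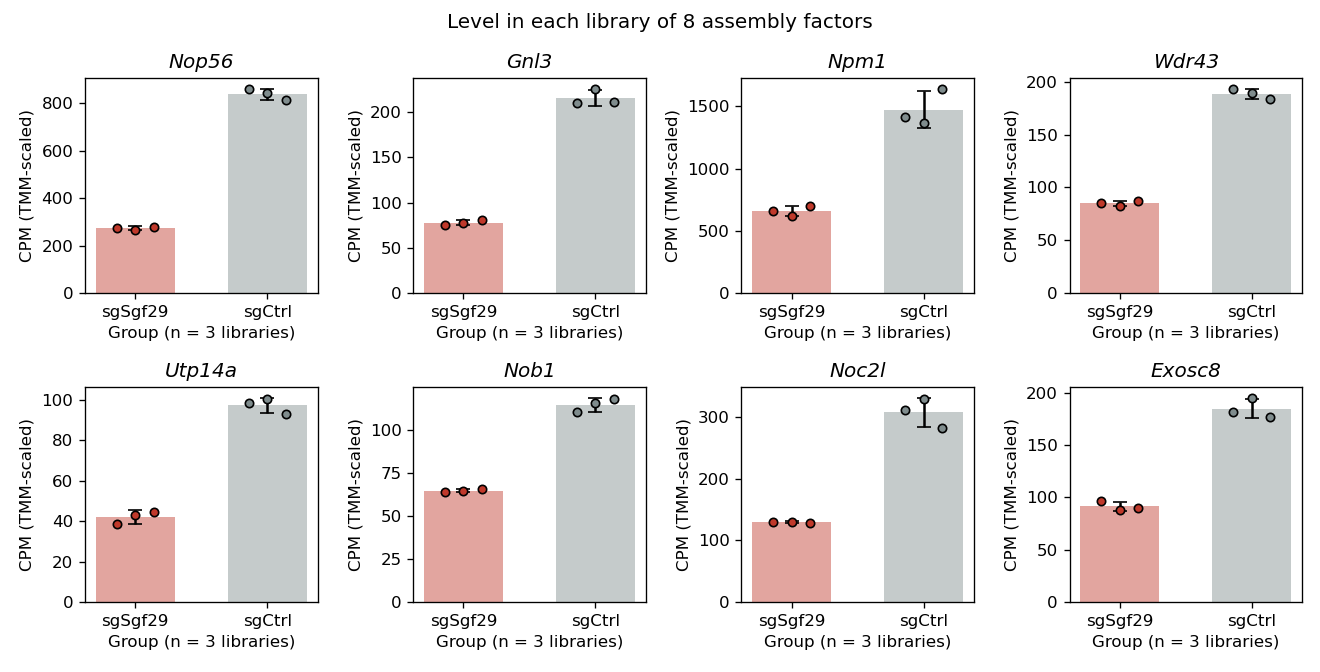
TMM-scaled CPM (vertical axis) of 8 members in each library, with sgSgf29 at left and sgCtrl at right. Bars are means, error bars SD over 3 libraries, points single libraries. In each panel the sgSgf29 points lie below all sgCtrl points, as for Nop56 with 267 to 280.4 CPM in sgSgf29 and 811 to 858 CPM in sgCtrl.

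The 60S assembly factors numbered 14, of which 13 were tested and all 13 were lower (median log2 fold change -0.69). Noc2l (chr4:156236010-156247616), which binds early large-subunit precursors, had 130.4, 130.0 and 128 CPM in the sgSgf29 libraries, against 312, 329 and 282 CPM in the sgCtrl libraries. The groups were well apart (log2 fold change -1.25, SE 0.067, adjusted p = 1.8e-12), and 20.9% of its exonic bases overlap Samd11 on the other strand. Samd11 itself had 10.96, 10.01 and 10.85 CPM in the sgSgf29 libraries, against 27.5, 32.6 and 19.7 CPM in the sgCtrl libraries (log2 fold change -1.32), and whether reads were assigned across strands was not tested. Wdr12 (chr1:60069785-60098645), of the PeBoW complex that processes the large-subunit precursor, had 60.4, 60.3 and 65.1 CPM in the sgSgf29 libraries, against 132, 131 and 149 CPM in the sgCtrl libraries. It passed the test (log2 fold change -1.15, SE 0.069, adjusted p = 9.5e-12). Rrp1b (chr17:32036100-32062865), a nucleolar factor, had 59.3, 60.2 and 54.4 CPM in the sgSgf29 libraries, against 121, 125 and 106 CPM in the sgCtrl libraries. The change was of similar size (log2 fold change -1.02, SE 0.073, adjusted p = 1.3e-10). Pes1 and Bop1, the PeBoW partners of Wdr12, had log2 fold changes of -0.77 and -0.50. The ratio of Wdr12 to Bop1 counts was 0.678, 0.688 and 0.692 in the sgSgf29 libraries, against 1.00, 1.11 and 1.14 in the sgCtrl libraries. The groups did not overlap in this ratio.

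Among the other 60S factors, the RNA methyltransferase Nop2 (-1.01) and Rrp15 (-1.01) also had log2 fold changes below -1. Rrp1, the paralog of Rrp1b, changed by -0.54, and Noc3l, a partner of Noc2l, by -0.52. The ratio of Rrp1b to Rrp1 counts was 0.241, 0.269 and 0.229 in the sgSgf29 libraries, against 0.348, 0.367 and 0.316 in the sgCtrl libraries. The ratio of Noc2l to Noc3l was 7.68, 7.45 and 6.34 in the sgSgf29 libraries, against 12.3, 12.3 and 10.6 in the sgCtrl libraries. Both were lower in each sgSgf29 library. Gnl2, a GTPase related to Gnl3, changed by -0.69. The ratio of Gnl3 to Gnl2 counts was 0.703, 0.838 and 0.944 in the sgSgf29 libraries, against 1.35, 1.504 and 1.38 in the sgCtrl libraries. It was lower in each sgSgf29 library. Nop16 (-0.68), Rrs1 (-0.59), which helps place the 5S particle, and the methyltransferase Rrp8 (-0.26, adjusted p = 0.013) were also lower. Rrp8 lost its call without sgSgf29 library 2 (adjusted p = 0.11). Wdr74 had 1 count in total, in sgSgf29 library 2, and was not tested.

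The RNA exosome has a ring, a cap of RNA-binding subunits and a catalytic subunit. Of 10 members 9 were tested and all 9 were lower, with a median log2 fold change of -0.66. Exosc5 (chr7:25659164-25671368), a ring subunit, had 132, 115 and 121 CPM in the sgSgf29 libraries, against 261, 233.8 and 257 CPM in the sgCtrl libraries. The groups did not overlap (log2 fold change -1.03, SE 0.069, adjusted p = 5.0e-11). Exosc8 (chr3:54728678-54735393), another ring subunit, had 96.6, 88.0 and 89.6 CPM in the sgSgf29 libraries, against 182, 195 and 177 CPM in the sgCtrl libraries. The groups were apart (log2 fold change -1.02, SE 0.066, adjusted p = 3.0e-11). Exosc2 (chr2:31670715-31681349), a cap subunit, had 53.0, 50.3 and 52.2 CPM in the sgSgf29 libraries, against 82.5, 90.1 and 82.7 CPM in the sgCtrl libraries. It also passed (log2 fold change -0.71, SE 0.066, adjusted p = 6.9e-09). The other ring subunits tested were Exosc4 (-0.66, with 19.8% of its exonic bases shared with Oplah on the other strand), Exosc7 (-0.51) and Exosc9 (-0.22, adjusted p = 0.013). Exosc9 was the 1 member called lower whose groups overlapped, it lost its call without sgSgf29 library 1 (adjusted p = 0.061) or 2 (0.094), and its sign turned with total-count scaling. The cap subunits Exosc1 and Exosc3 changed by -0.68 and -0.48, and the nuclease Exosc10 by -0.26. The ratio of Exosc8 to Exosc9 counts was 2.31, 2.14 and 1.92 in the sgSgf29 libraries, against 3.89, 3.76 and 3.35 in the sgCtrl libraries. No library of 1 group reached the other. Exosc6, also a ring subunit, had 0 counts in all libraries. Counting error alone would allow up to 0.138 to 0.187 CPM, here without TMM scaling. However, all exonic bases of Exosc6 lie inside Aars on the same strand. Its reads could not be told from those of that gene, so the 0 sets no bound on its level.

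Other parts of the pathway were measured by a written list of 67 further genes outside the chosen set, called other assembly factors here. The list also includes genes of RNA polymerase I transcription, namely Polr1a, Polr1b, Rrn3 and Ubtf. Of the 67 genes, 62 were lower, none was higher and 5 did not pass, with a median log2 fold change of -0.64. Over all genes tested, 34.4% were called lower and 35.4% higher. With total-count scaling 51 of the 67 were lower and 2 higher, at a median of -0.41. Of all 11169 genes tested, 2385 were then lower and 5575 higher. The largest changes were in Ppan, a large-subunit factor, which had 82.4, 81.2 and 84.7 CPM in the sgSgf29 libraries, against 266, 263 and 229 CPM in the sgCtrl libraries (log2 fold change -1.61, SE 0.070, adjusted p = 6.0e-14). Polr1b, the second largest subunit of RNA polymerase I, had 38.3, 39.2 and 38.9 CPM in the sgSgf29 libraries, against 95.8, 86.8 and 79.2 CPM in the sgCtrl libraries (log2 fold change -1.17, SE 0.074, adjusted p = 2.4e-11). Nat10, an RNA acetyltransferase, had 62.6, 67.8 and 68.2 CPM in the sgSgf29 libraries, against 135, 141 and 138 CPM in the sgCtrl libraries (log2 fold change -1.06, SE 0.064, adjusted p = 9.8e-12). Ddx56, a nucleolar helicase, had 57.9, 55.0 and 59.999 CPM in the sgSgf29 libraries, against 113, 114 and 112 CPM in the sgCtrl libraries (log2 fold change -0.97, SE 0.064, adjusted p = 3.6e-11). In all 4 genes the groups did not overlap.

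The E-box was searched with other short motifs in the 53 members with a RefSeq promoter. A gene was counted if any of its start regions held the motif. The E-box was present in 12 members, or 22.6%, beside 11.98% of 8737 tested genes and 8.09% of all 27025 genes with a promoter. Among the other assembly factors it was present in 12 of 56 genes with a promoter, or 21.4%. The ETS-type motif was present in 19 members, or 35.8%, beside 21.6% of tested genes and 9.93% of all genes with a promoter. Among the other assembly factors it was present in 44.6%. The NRF1-type motif CGCATGCG was present in 5.66% of members, 4.74% of tested genes and 2.07% of all genes with a promoter. In the same order, the YY1-type motif AAGATGGCG was present in 3.77%, 3.91% and 1.64%, and the TATA motif TATAAA in 5.66%, 8.22% and 15.7%. A match is a description of letters and not a site. Among tested members with a promoter, the median log2 fold change was -0.75 in the 12 with an E-box and -0.82 in the 39 without. Myc itself had 97.9, 119 and 121 CPM in the sgSgf29 libraries, against 208, 231 and 228 CPM in the sgCtrl libraries. It was lower in each sgSgf29 library (log2 fold change -0.98, SE 0.077, adjusted p = 6.0e-10), and its part in the members' values was not tested.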

How the data were processed

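The authors deposited raw read counts per gene symbol for 6 mRNA libraries in 1 table. Per the study's methods and the submitters' processing notes, reads were aligned to GRCm38 (mm10) with STAR and TMM-normalised with edgeR. The counting tool and its strand setting for this table are not given without conflict in the sources used here, and the sources name different STAR versions. Bookkeeping entries that name no gene, 25.8% to 31.4% of each column, were left out, and 0 columns of other samples were present. Gene counts per library were 16003990 to 21786618.

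Counts were tested with the edgeR (4.0.16) quasi-likelihood test on all genes that passed filterByExpr (count minimum 10, total 15), with TMM scaling, Benjamini-Hochberg adjustment over 11169 genes and a threshold of 0.05. The members and lists were chosen with earlier results of these data known. All members are named. Values in full are given for the 3 members with the largest absolute log2 fold change in each stage (2 where it has under 5), for any member that did not pass, for Sgf29 and Myc, and for the 4 other assembly factors with the largest change. The Fbl values and the count ratios were added after the values were seen. CPM are TMM-scaled, except the values given for counting error at Exosc6, and errors are SD over 3 libraries. No pair of libraries in a group agreed within sampling noise. The fit was tested on simulated data in which few genes changed, as many up as down. That simulation does not test the scaling where most genes are called, as here. Alternatives were RLE, upper-quartile and total-count scaling, TMM without ribosomal protein genes and members, 2 other filters, DESeq2 (1.42.0), limma-voom (3.58.1), a threshold of 0.01, a replicate block and leaving out each library. Exon overlap came from GENCODE vM21, in which 28 of the 65 members share exonic bases with a gene on the other strand, and pseudogenes from blastn (2.17.0) matches of at least 90% identity over 200 bases. Intervals for counts of 0 cover counting error only.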

Additional observations from a re-analysis of the deposited data

How the results depend on the processing

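The count of members called lower was 62 in all alternatives except the stricter threshold (57), total-count scaling (51) and the leaving out of 1 library (57 to 61). Total-count scaling also moved the members' median log2 fold change to -0.51, and turned Utp3 (0.041), Exosc9 (0.0074), Bysl (0.012) and Ltv1 (0.044) to values above 0. The count of members called higher became 1 (Dkc1) with upper-quartile scaling, total-count scaling and the replicate block, and ranged from 0 to 1 when 1 library was left out. Deviations from the group mean correlated at 0.005, 0.055 and 0.078 between same-numbered libraries, and at -0.091 to 0.040 between differently numbered ones. With 3 libraries a group, these values cannot settle whether the numbers pair the libraries. With the replicate number as a block, 62 members were lower and 1 higher, and no other member's call changed. The members' median was -0.73 to -0.77 when 1 library was left out. Of 69 genes followed through the alternatives, 57 kept their call under every alternative run. The 69 were the tested members, Sgf29, Myc, Ppan, Polr1b, Nat10 and Ddx56. Other genes with values in the text, such as Nol11, were not in this check. With 3 libraries a group, the small changes of Utp23, Ltv1, Utp3, Exosc9, Rrp8 and Bysl lost their call when single libraries were left out. The members were tested as RNA only, so protein levels were not analysed here.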
